A study of Mus musculus with 8 samples.

Results

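The hematoendothelial transcription factors examined here are 9 genes, *Tal1*, *Lyl1*, *Lmo2*, *Ldb1*, *Gata1*, *Gata2*, *Runx1*, *Gfi1* and *Hhex*. They were taken by name from the array annotation with every probe that carries the name, which gave 10 probes of the 55295 usable probes, or 9 of 35560 genes. They were read in single endocardium cells from the heart tube of mouse embryos at E8.5, at somite stage 9, on 8 one-colour Agilent arrays that each hold the amplified cDNA of 1 cell. The 4 WT cells came from embryos with the Mesp1+/+, Sox17 flox/flox genotype, which carry the floxed allele but no Cre, and the 4 *Sox17* KO cells came from embryos with the Mesp1Cre/+, Sox17 flox/flox genotype. *Mesp1* is active in early mesoderm, so the deletion was not limited to the endocardium and could include the cardiomyocytes and other mesodermal cells of the same embryo. The embryo of each cell was not named, and a genotype was therefore treated as 1 sample. Every cell is given by its own value, and no test between the genotypes was made.

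In the embryo, endothelial and blood cells arise from a shared mesodermal precursor, and the endocardium, the endothelium that lines the heart, belongs to this lineage. The bHLH factors *Tal1* and *Lyl1* are paralogues that bind E-box DNA with an E protein partner and assemble with the LIM-only protein *Lmo2*, its binding protein *Ldb1* and a GATA factor. *Gata1* is the GATA factor of red cells and platelets and *Gata2* that of early endothelium and blood precursors, while *Runx1* and the repressor *Gfi1* act when endothelium turns into blood, and the homeobox factor *Hhex* marks early endothelium and endoderm.

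Levels are the scanner software's processed signal after each array was scaled to a common 50th percentile, with values under 50 set to 50, on a log2 scale. The lowest value that can be printed is therefore 5.64, and values at this floor have no order. A probe was called well above background, or detected, in a cell by the software's own flag, which does not depend on the scaling or the floor, so that a probe can be well above background and still lie at the floor.

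The breadth of detection differed between the cells, with 20.6% to 32.9% of all usable probes well above background. WT cell 1 had the fewest, 11370 probes, and its array was the only one to which the scanner software gave the mark Evaluate. Of 10 endothelial markers, 7 to 10 were well above background in the WT cells and 6 to 9 in the KO cells, with summed signals of 10037 to 35685 and 7045 to 79403, and *Pecam1*, *Cdh5* and *Kdr* were each detected in every cell. Of 9 cardiomyocyte markers, 3 to 8 were well above background in WT cells and 4 to 8 in KO cells, with summed signals of 329 to 34070 and 1040 to 48728. Their sum was above the endothelial sum in WT cell 2 (34070 against 10037), KO cell 1 (48728 against 7045) and KO cell 4 (28968 against 13906), and their part in the results was not tested. The 7 primitive erythroid markers, among them the embryonic globins *Hba-x*, *Hbb-bh1* and *Hbb-y*, were at the floor in every cell, with summed signals of at most 84.4, and 0 to 2 of them per cell were called detected. These calls were for the adult globin *Hba-a1* in 7 cells, *Hbb-bh1* in 2 WT cells and *Hbb-y* in 1 KO cell. Of 3 smooth muscle markers 2 were detected in every cell, and of 5 endoderm markers none was. *Sox17* itself could not check the labels, since neither of its 2 probes was well above background in any cell of either genotype.

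Of the 9 factors, 6 were well above background in at least 1 cell and 3 in none. Counted per cell, WT cells 1 to 4 had 2, 5, 4 and 5 of the 9 factors well above background, and KO cells 1 to 4 had 4, 5, 5 and 6. The medians were 4.5 factors in WT and 5.0 in KO cells, and the ranges overlapped. WT cell 1 had the fewest factors as well as the fewest probes detected. The members of the *Tal1* complex, counted as *Tal1*, *Lyl1*, *Lmo2*, *Ldb1* and *Gata2*, were all 5 well above background in KO cells 2 and 4 and in no WT cell. This rests on the flag. *Tal1*, *Lmo2* and *Ldb1* were at the floor in KO cell 4, with scaled signals of 26.7, 12.9 and 10.8. *Ldb1* was at the floor in KO cell 2, at 28.3. By signal over the floor, no cell of either genotype had all 5. The dimmest signal called well above background also differed by array, at 9.51 in KO cell 4, 17.7 in WT cell 1 and 5.29 in WT cell 4. The missing member in WT cells 2, 3 and 4 was *Lmo2* in each case, while *Lyl1* was the only factor of the 9 that was well above background in all 8 cells.

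**Figure D1:**
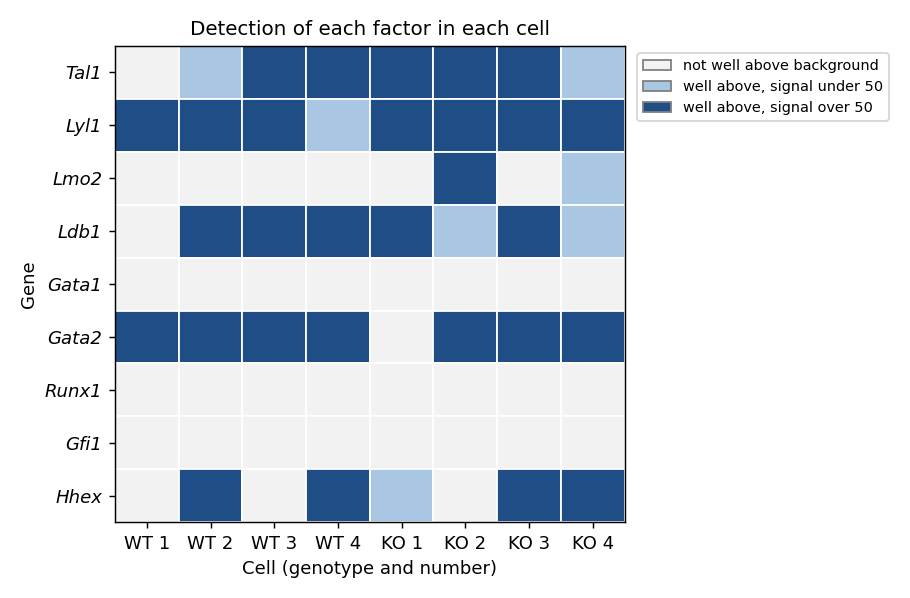
Detection of each factor (rows) in each of the 4 WT and 4 KO cells (columns). Pale squares are not well above background, light blue squares are well above background with a scaled signal under 50, and dark blue squares have a signal over 50. *Gata1*, *Runx1* and *Gfi1* are pale throughout, and *Lyl1* alone is detected in all 8 cells.

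*Lyl1*, which maintains endothelial and blood precursors in part together with *Tal1*, was the factor in which the genotypes differed most. Its log2 signal was 6.92, 5.78, 7.77 and 5.64 across WT cells 1 to 4 and 11.48, 9.21, 7.79 and 8.96 across KO cells 1 to 4. Every KO cell lay above every WT cell, but by almost nothing at the boundary, where the scaled signal was 222 in KO cell 3 and 218 in WT cell 3. The mean log2 signal was 6.53 in WT and 9.36 in KO cells, a difference of 2.84, or 7.14-fold, against an SD between cells of 1.30 pooled over the genotypes.

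*Lyl1* was the 1 factor at least 5-fold higher in KO cells, and the 1 factor whose genotypes did not overlap. Over all 35560 genes, 1.83% were at least 5-fold higher in KO cells, and over the 19142 genes detected in 1 cell or more 3.41% were. All KO cells lay above all WT cells in 0.647% of all genes and in 1.20% of the detected genes. No factor was at least 5-fold lower in KO cells, against 1.85% of all genes and 3.43% of the detected ones, and none had all WT cells above all KO cells, against 0.141% and 0.261%. The separation of *Lyl1* ended with the 75th percentile, quantile normalization or normexp background correction in place of the scaling used, and without KO cell 1, a cell whose cardiomyocyte marker sum was above its endothelial one, its difference was 2.13, under 5-fold. The *Lyl1* probe lies at chr8:87228531-87228590 of mm9, as the array files give it. The exon or untranslated region that each probe reads was not determined here, since no annotation of that build was used.

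*Tal1*, the bHLH factor required to form blood and to shape the endocardium, was detected more widely than *Lmo2* but had the highest SD between cells of the 9. The log2 signal of its probe (chr4:114744219-114744278) was 5.64, 5.64, 12.56 and 12.10 across WT cells 1 to 4 and 6.68, 5.94, 13.48 and 5.64 across KO cells 1 to 4. WT cells 3 and 4 and KO cell 3 were high, and the other 5 cells were low, at most 6.68. *Tal1* was well above background in 3 of 4 WT and 4 of 4 KO cells, and the difference of -1.05 was far smaller than the SD between cells of 3.79. Leaving out WT cell 3 turned it to 0.14, and leaving out KO cell 3 moved it to -2.90. Among the 8736 genes detected in 6 or more cells, 97.0% had a lower SD between cells than *Tal1*, and 61.9% a lower one than *Lyl1*. Some of the 8736 genes are at the floor throughout, which raises such shares.

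**Figure D2:**
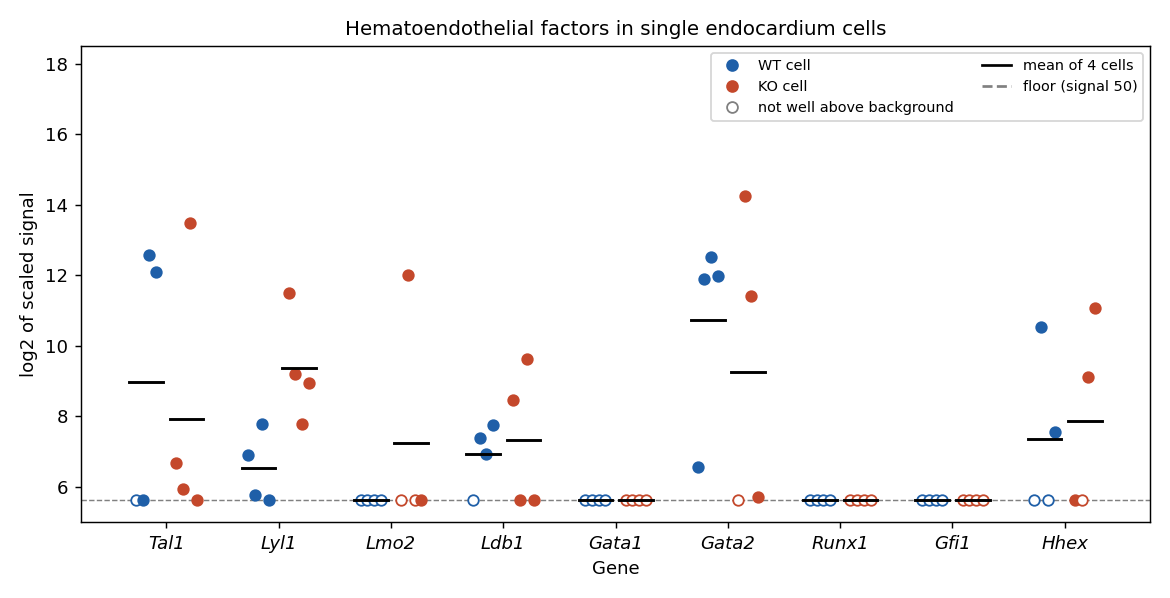
The log2 scaled signal (vertical axis) of each factor in the 4 WT cells (blue) and the 4 KO cells (red). Each point is 1 cell, open points are not well above background, black bars are means of 4 cells and the dashed line is the floor at a signal of 50. The KO cells of *Lyl1* lie above its WT cells, while *Tal1* and *Gata2* have high and low cells in both genotypes. *Runx1* is drawn by the probe with the higher mean of its 2, both at the floor.

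The starts of these paralogues, the factor set apart by genotype and the one with the highest SD between cells, can be compared by the letters before them. RefSeq promoter windows on GRCm38.p6 matched 8 of the 9 factors in 14 windows, from 250 bases before to 50 after a start. Each line holds the 250 bases before the start, 5′ to 3′ on the plus strand, and capitals mark, on either strand, the E-box letters CANNTG, the GATA letters AGATAA or TGATAA, the ETS core GGAA, the RUNX letters TGTGGT or the SOX core ACAAT.
*Lyl1*, chr8:84701207-84701456: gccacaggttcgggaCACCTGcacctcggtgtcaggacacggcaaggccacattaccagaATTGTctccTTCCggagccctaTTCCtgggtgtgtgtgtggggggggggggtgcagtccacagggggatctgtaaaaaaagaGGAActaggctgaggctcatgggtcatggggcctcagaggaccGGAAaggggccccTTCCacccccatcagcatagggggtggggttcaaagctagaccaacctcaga
*Tal1*, start 1, chr4:115056176-115056425: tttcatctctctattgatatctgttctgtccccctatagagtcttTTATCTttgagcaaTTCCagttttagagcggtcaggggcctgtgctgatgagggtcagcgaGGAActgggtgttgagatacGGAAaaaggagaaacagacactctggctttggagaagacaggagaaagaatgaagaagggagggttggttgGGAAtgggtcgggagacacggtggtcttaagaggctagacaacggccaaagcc
*Tal1*, start 2, chr4:115057561-115057810: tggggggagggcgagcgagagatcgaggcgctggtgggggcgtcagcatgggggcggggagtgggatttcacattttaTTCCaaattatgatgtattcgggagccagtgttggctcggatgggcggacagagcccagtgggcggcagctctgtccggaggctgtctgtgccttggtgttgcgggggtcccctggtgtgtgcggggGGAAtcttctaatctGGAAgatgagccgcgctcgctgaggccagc
In the stretch before *Lyl1* there were 1 E-box, which begins at position -235 from the start, 1 SOX core, at position -190, and 5 ETS cores, and no marked letters overlapped. Start 1 of *Tal1* had 1 GATA match, at position -205, and 4 ETS cores, and start 2 had 3 ETS cores alone.

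Over the 14 full windows of the factors, an ETS core was found in 14, an E-box in 8, SOX core letters in 3, GATA letters in 2 and RUNX letters in 1. Over all 32851 windows of that length, the shares were 96.0% for the ETS core, 72.3% for the E-box, 31.0% for the SOX core, 18.6% for GATA and 16.8% for RUNX. The SOX core windows were those of *Lyl1* and *Ldb1*. Such short letters are common, and a match describes the sequence and does not show a bound site.

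*Lmo2*, the LIM-only bridge between the bHLH and GATA factors, was well above background in no WT cell and in KO cells 2 and 4. Its log2 signal (probe at chr2:103821857-103821916) was 5.64 in all 4 WT cells and 5.64, 12.02, 5.64 and 5.64 across KO cells 1 to 4. The signal was thus high in KO cell 2, where the scaled signal was 4149, and low in all the others, where it was at most 12.9. With all values under 50 taken at the floor, in the WT cells and in KO cells 1, 3 and 4, *Lmo2* was 3.02-fold higher in KO cells. That fold rested on KO cell 2, without which the difference was 0.00, and the SD between cells was 2.25.

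*Ldb1*, which binds LIM-domain proteins and holds the complex together, was well above background in 3 WT cells and 4 KO cells. Its log2 signal (probe at chr19:46107487-46107546) was 5.64, 7.38, 6.93 and 7.76 across WT cells 1 to 4 and 8.45, 5.64, 9.63 and 5.64 across KO cells 1 to 4. KO cells 1 and 3 lay above every WT cell, while KO cells 2 and 4 were at the floor, as was WT cell 1. The difference was 0.41 against an SD between cells of 1.57, and it was -0.35 without KO cell 3.

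*Gata2*, the GATA factor of endothelium and blood precursors, was well above background in 4 WT and 3 KO cells. The log2 signal of its probe (chr6:88156362-88156421) was 6.56, 11.91, 12.52 and 11.97 across WT cells 1 to 4 and 5.64, 14.23, 11.41 and 5.71 across KO cells 1 to 4. In WT 3 of the 4 cells were high and close together, whereas KO cells 2 and 3 were high and KO cells 1 and 4 low. The difference was -1.49 against an SD between cells of 3.62, which was higher than that of 95.5% of the 8736 widely detected genes. Without WT cell 1 the difference was -2.88 and without KO cell 2 -3.15, both past 5-fold, and without KO cell 1 it was -0.29.

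*Hhex*, the homeobox factor of early endothelium, was well above background in WT cells 2 and 4 and in KO cells 1, 3 and 4. The log2 signal of its probe (chr19:37514969-37515028) was 5.64, 10.55, 5.64 and 7.57 across WT cells 1 to 4 and 5.64, 5.64, 9.11 and 11.07 across KO cells 1 to 4. High and low cells occurred in both genotypes, and the difference was 0.52 against an SD between cells of 2.51. Leaving out KO cell 4 turned it to -0.55, and leaving out WT cell 2 moved it to 1.58.

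No probe of the other 3 factors was well above background in these cells. *Gata1* (probe at chrX:7536392-7536451), *Gfi1* (chr5:108145719-108145778) and both probes of *Runx1* (chr16:92604413-92604472 and chr16:92605785-92605844) reached that level in no cell of either genotype. Their highest scaled signals over the 8 cells were 3.78 for *Gata1*, 4.32 for *Gfi1*, and 4.23 and 4.79 for the *Runx1* probes. The dimmest signal that the software called well above background in a cell was between 5.29 and 17.7. No fold is given for these 3 genes, and a transcript lost in the amplification of 1 cell cannot be told apart from one that was not made.

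Across the 6 detected factors, 4 were higher and 2 lower in KO cells by their means, with a median difference of 0.46, and the median over all detected genes was 0.00. The median size of the difference was 1.27 for these factors and 0.39 for all detected genes, and the median SD between cells was 2.38 and 0.81. Of the 19142 detected genes, 4547 had equal means in the genotypes, as a gene at the floor throughout does, and none of these factors did. Genes at the floor throughout lower both medians of all detected genes, so the factors were not compared with genes of like signal. Over the 8736 genes detected in 6 or more cells, the medians were 0.47 and 0.88. Genes at the floor throughout are among these too, and they raise the share of genes that fall below a factor. Among the 4 factors detected in 6 or more cells, the size of the difference was larger than that of 95.2% of the 8736 genes for *Lyl1*, 82.3% for *Gata2*, 73.2% for *Tal1* and 46.7% for *Ldb1*. For 5 of the 6 detected factors the difference was smaller than the SD between cells, *Lyl1* being the exception.

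**Figure D3:**
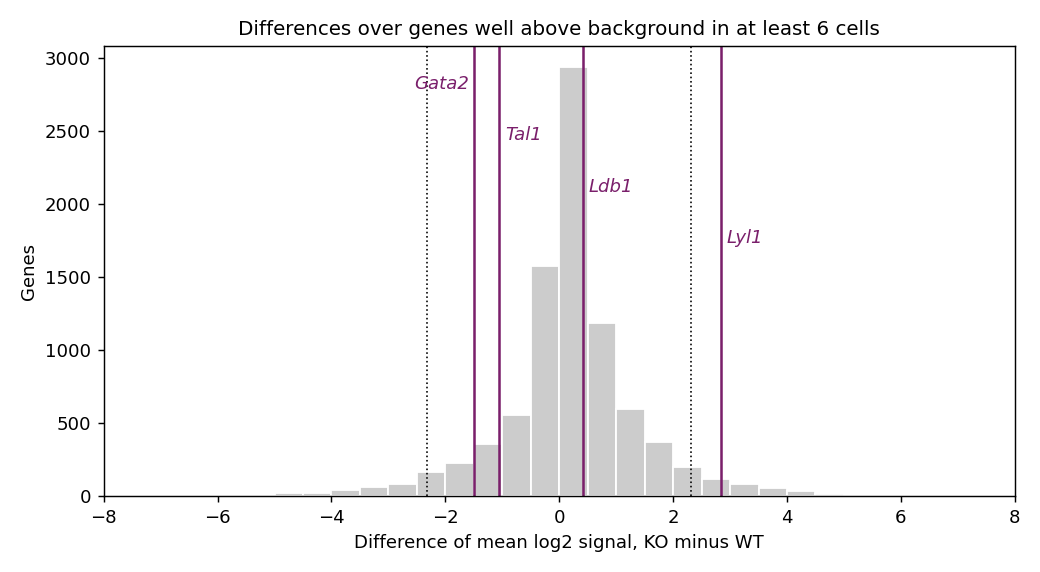
Differences of the mean log2 signal, KO minus WT (horizontal axis), of the 8736 genes detected in 6 or more cells, in bins (grey, number of genes on the vertical axis). Purple lines mark the 4 factors among them and dotted lines 5-fold in either direction. *Lyl1*, at 2.84, lies past the upper line, where 4.41% of these genes lie, and *Gata2*, *Tal1* and *Ldb1* lie between the lines.

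The factors did not share a pattern over the cells. Pearson's r over the 8 cells, between pairs of the 6 detected factors, ranged from -0.43 for *Lyl1* with *Gata2* to 0.63 for *Tal1* with *Ldb1*. The paralogues *Tal1* and *Lyl1* had an r of -0.27. These values describe 8 cells of both genotypes, many of them at the floor.

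The genes with the closest pattern to a factor were found among 7977 genes, transcripts and unnamed probes detected in 6 or more cells. Those with the same value in all 8 cells, such as genes at the floor throughout, were left out here. For *Tal1* the closest were *Tcf20*, with an r of 0.99, *Zfp28*, with 0.99, and a noncoding transcript of chromosome 2. For *Lyl1* they were *1700122E12Rik*, with an r of 0.99, an unnamed probe and *Gm3561*, both with 0.95. *Ldb1* was closest to *Esrra*, with an r of 0.95, a noncoding transcript of chromosome 5 and *Fen1*, with 0.93. *Gata2* was closest to a noncoding transcript of chromosome 1, *Tmem165*, both with an r of 0.99, and *Fam98a*, with 0.98. An r over 0.9 was reached by 27 genes for *Tal1*, 30 for *Lyl1*, 29 for *Gata2* and 6 for *Ldb1*, and with 8 cells a few high values can set it.

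**Figure D4:**
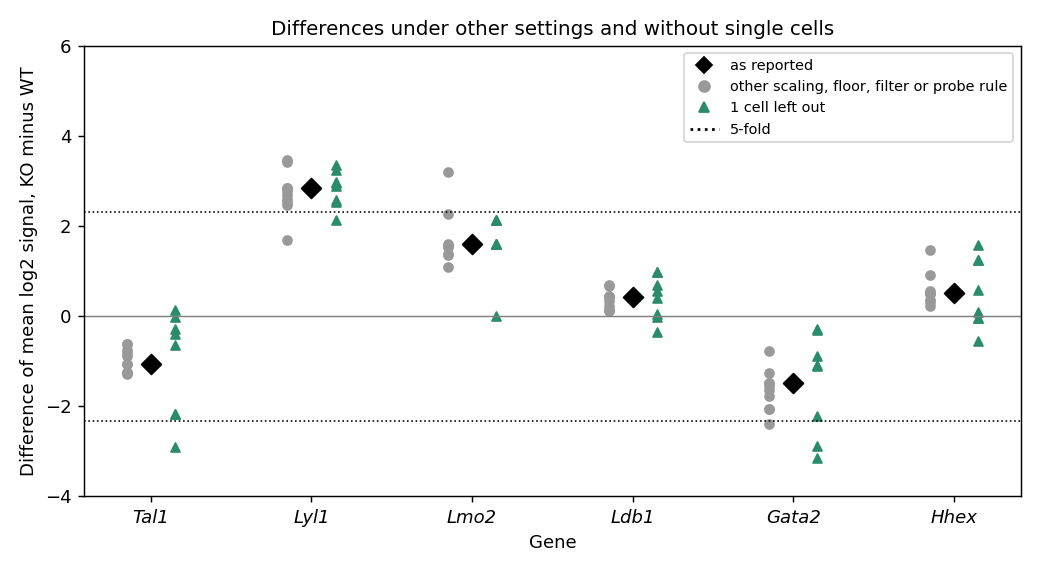
Differences of the mean log2 signal, KO minus WT (vertical axis), of the 6 detected factors as reported (black), under other scalings, floors, filters and probe rules (grey) and with 1 cell left out (green). Dotted lines mark 5-fold. *Lyl1* stays above 0 at 1.69 to 3.47, whereas *Tal1*, *Ldb1* and *Hhex* cross 0 when a single cell is left out.

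Partners and targets were read from 41 other genes of the hematoendothelial program, each by its highest-mean probe, of which 31 were well above background in at least 1 cell and 8 in all 8 cells. At least 5-fold differences were found in 3 genes that were higher and 5 that were lower in KO cells, beside the 1.83% and 1.85% of all genes. Over the genes detected in 1 cell or more, the shares were 3.41% and 3.43%. The detected genes were almost evenly divided, with 14 higher, 15 lower and 2 equal, and their median difference was 0.00.

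The E proteins, which pair with *Tal1* and *Lyl1*, differed in both directions. *Tcf3* was detected in all 8 cells, with log2 signals of 10.30, 12.18, 5.64 and 10.88 across WT cells 1 to 4 and 5.64, 5.64, 11.34 and 5.74 across KO cells 1 to 4. WT was mostly high and KO mostly low, with 1 cell in each genotype the other way, and the difference was -2.66 (SD between cells 2.84). It was under 5-fold without WT cell 2, at -1.85, and also without WT cell 4 or KO cell 1, 2 or 4, at -2.29 to -2.18, and the second *Tcf3* probe differed by -0.99. *Tcf4* was well above background in no WT cell and in 3 KO cells, with log2 signals of 5.64, 5.64, 13.98 and 13.01 across KO cells 1 to 4. With values under 50 taken at the floor in both genotypes, it was 15.2-fold higher in KO cells by this probe. The difference was 3.93, and 2.46 without KO cell 3, and the second *Tcf4* probe was detected in no cell, which brought the mean of both probes to 1.96, under 5-fold. *Tcf12* differed by 0.42.

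*Cbfb*, the partner that *Runx1* needs to bind DNA, had log2 signals of 7.98, 11.72, 12.73 and 9.61 across WT cells 1 to 4 and 5.64, 5.64, 11.02 and 5.64 across KO cells 1 to 4. KO cell 3 lay within the WT range, and the other 3 KO cells were at the floor. The difference was -3.52 (SD between cells 2.43). *Runx3* was detected in all 8 cells but at or near the floor in each, with a difference of 0.04, and the highest-mean probe of *Runx2* was detected in no cell. Of the other 2 *Runx2* probes, 1 was detected in KO cell 3, at the floor.

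*Gata3*, a GATA factor of other lineages, was well above background in 3 WT cells and no KO cell, with log2 signals of 14.10, 5.64, 5.64 and 10.50 in WT cells 1 to 4. With values under 50 taken at the floor in both genotypes, it was 10.05-fold lower in KO cells. The difference of -3.33 was -1.62, under 5-fold, without WT cell 1, the array marked Evaluate. *Zfpm1*, the cofactor that binds GATA factors, was split by probe. The 2 brighter probes differed by 0.77 and 0.74 with overlapping genotypes. The third probe was well above background in no WT cell and in all 4 KO cells, with log2 signals of 11.996, 7.91, 9.13 and 8.43, and was at least 13.2-fold higher in KO cells.

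Among corepressors, *Cbfa2t3*, a member of *Tal1* complexes, had log2 signals of 5.64 in all 4 WT cells and 14.10, 5.64, 13.15 and 5.84 across KO cells 1 to 4. The high cells were KO cells 1 and 3, and the difference was 4.04 (SD between cells 3.23), but it was 2.57 without KO cell 1, and its other 2 probes differed by 0.00 and 0.17. *Tle3*, a Groucho corepressor of the kind *Hhex* recruits, had log2 signals of 11.32, 11.85, 15.09 and 6.16 across WT cells 1 to 4 and 7.70, 5.64, 5.64 and 5.64 across KO cells 1 to 4. The difference was -4.95 (SD between cells 2.71), and the genotypes overlapped only through WT cell 4 and KO cell 1.

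*Etv2*, the ETS factor at the head of the endothelial and blood program, had log2 signals of 15.50, 5.64, 13.58 and 12.49 across WT cells 1 to 4 and 7.31, 6.35, 5.64 and 12.46 across KO cells 1 to 4. WT cell 2 was low and KO cell 4 high against the rest of their genotypes. The difference was -3.86 (SD between cells 3.74), or -5.92 without WT cell 2, and that of its second probe was -3.59. *Fli1*, another ETS factor of endothelium, was detected in all 8 cells and differed by 1.23 (SD 1.06).

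*Cd34*, a surface protein of endothelium and blood precursors, was the 1 gene of the 41 whose genotypes did not overlap when each gene is given by its highest-mean probe. All KO cells lay above all WT cells in 0.647% of all genes and in 1.20% of the detected genes. Its log2 signal was 6.09, 13.35, 13.23 and 13.63 across WT cells 1 to 4 and 13.95, 15.23, 14.72 and 14.82 across KO cells 1 to 4. WT cell 1 was far below all the others, and the difference of 3.10 (SD between cells 2.61) was 1.27 without it. The genotypes overlapped under 5 of 10 alternatives, among them the 75th percentile, quantile normalization and normexp, and the second *Cd34* probe was detected in 1 cell and differed by 0.19. Among other genes well above background in all 8 cells, the difference was 2.28 for the adhesion molecule *Esam*, 0.80 for *Ssbp2*, which binds *Ldb1*, and 0.16 for the VEGF receptor *Kdr*.

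Of the blood factors *Spi1*, *Myb*, *Mecom*, *Klf1*, *Nfe2* and *Ikzf1*, all were at the floor in all 8 cells, and *Spi1* alone was well above background, in 1 KO cell. The leukocyte marker *Ptprc* and the platelet marker *Pf4* were at the floor in every cell as well. *Itgam* and *Csf1r* were detected in all 8 cells, with a highest log2 signal of 16.05 for *Itgam* in KO cell 1 and 10.70 for *Csf1r* in WT cell 1, but the other 2 *Itgam* probes and 1 of the 3 *Csf1r* probes were at the floor in all 8 cells. The summed signal of these 4 leukocyte and platelet markers was 5737 to 24257 in WT and 5285 to 69147 in KO cells, and its part in the results was not tested.

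**Figure D5:**
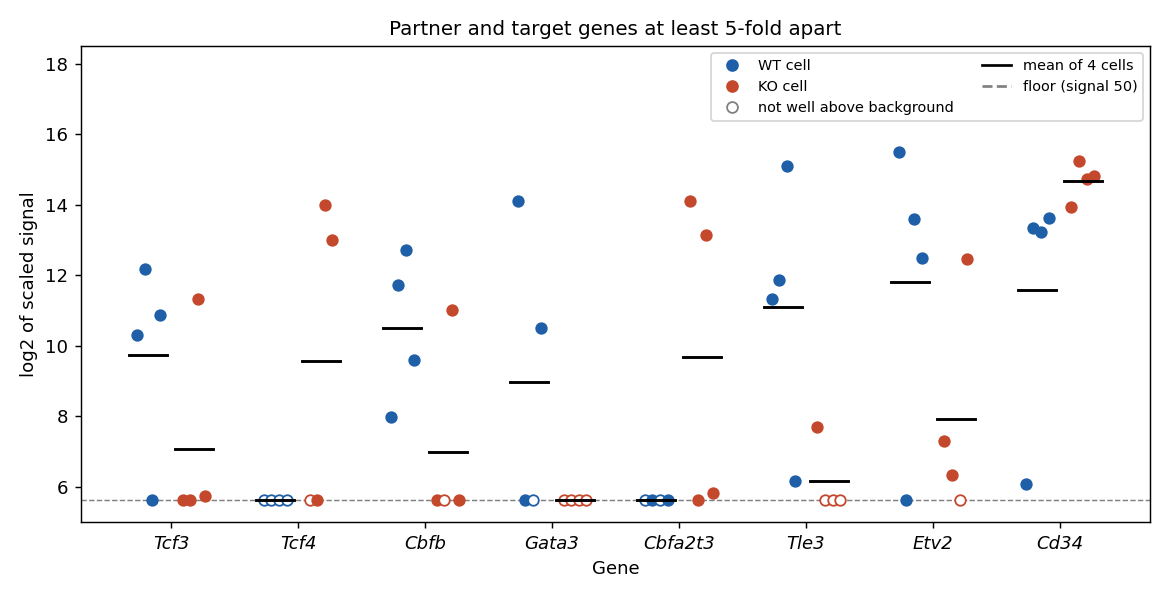
The log2 scaled signal (vertical axis) of the 8 partner and target genes at least 5-fold apart, in 4 WT cells (blue) and 4 KO cells (red). Each point is 1 cell, open points are not well above background, black bars are means and the dashed line is the floor at a signal of 50. Single cells at the opposite level to the rest of their genotype are seen in *Tcf3*, *Cbfb*, *Etv2* and *Cd34*.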

How the data were processed

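Each array held amplified cDNA of 1 endocardium cell, transcribed to RNA and labelled with Cy3. The cells had been typed by marker PCR. The intensity values that the authors deposited are the processed signals of Agilent Feature Extraction 12.0.2.2, background-subtracted and detrended within an array and not normalized between arrays. Further columns of the deposited files are other values, 0 or 1 flags that mark control spots, outlier spots, saturation and signal over background. Probe positions are those of mm9 in the files.

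Control and outlier spots were left out and spots of a probe averaged, which kept 55295 of 55681 probes. A probe was well above background when over 50% of its spots were. No probe was saturated, and the arrays shared 1 slide and 1 scan. On each array the 50th percentile was taken over the 7570 probes detected on every array, all signals were multiplied to bring it to the mean of the 8 percentiles, and log2 followed after values below 50 had been raised to 50. Names came from RefSeq accessions for 28131 probes. Where a gene had more than 1 probe, the one with the highest mean stands for it. The bound written as at least N-fold, for 1 probe of *Zfpm1*, sets the undetected genotype at the floor. The floor is above the dimmest signal well above background on any array, and all 4 cells of the other genotype lay over it. For *Lmo2*, *Tcf4* and *Gata3*, cells of the detected genotype were also raised to the floor. Their folds are therefore differences at the floor and not lower bounds.

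Pooled SDs between cells stand beside each difference, and 5-fold follows the study's methods. Named are all 9 factors, the listed partner and target genes at least 5-fold apart, not overlapping or detected in all 8 cells, the 3 closest patterns to each factor detected in at least 6 cells, and cell type markers. A gene that this rule names is not reported here. *Zfpm1* and *Spi1*, and the undetected blood genes beside it, were named after their values were seen, as were *Tcf12* and *Runx2*. The members and lists were chosen with earlier results of these data known. The calculation was tested on simulated data. Python 3.11.15, pandas 2.3.3, R 4.3.3 and limma 3.58.1 were used, the last for normexp. Quantile normalization was calculated in Python. Alternatives changed the percentile, normalization, background correction, floor, filter, probe rule and cells included.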

Additional observations from a re-analysis of the deposited data

Results flagged for a closer look

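In 7 of 24 sets of 4 cells of a genotype, for the detected factors and the partner and target genes at least 5-fold apart, the highest or lowest cell stood apart by a gap that took up an unusually large share of the whole range. For normally distributed values, chance alone gives about 1 in 20, or 1.2 sets, and sets with 3 cells at the floor meet this criterion by their construction, as 3 of the 7 did. The values here are cut at a floor, and the partner and target genes were picked by their differences in these same cells. The 7 sets therefore cannot be measured against 1.2.

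KO cell 3 lay above the other KO cells for *Tal1* (gap over range 0.868, log2 signal 13.48), *Tcf3* (0.984, 11.34) and *Cbfb* (1.0, 11.02, the other 3 at the floor). WT cell 1 lay below the other WT cells for *Gata2* (0.897, log2 signal 6.56) and *Cd34* (0.948, 6.09), and it was the array with the fewest probes well above background, 11370. KO cell 2 lay above the other KO cells for *Lmo2* (1.0, log2 signal 12.02, the other 3 at the floor), and KO cell 1 for *Tle3* (1.0, log2 signal 7.70, the other 3 at the floor).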

How the results depend on the processing

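The 1 factor that did not overlap between the genotypes became 0 with the 75th percentile, with quantile normalization and with normexp. The 1 factor at least 5-fold apart became 0 with a floor of 200 and 2 with quantile normalization or no floor, and with 1 cell left out the number lay between 0 (KO cell 1 left out) and 2 (WT cell 1, KO cell 2 or KO cell 3 left out). The difference of *Lyl1* ranged from 1.69 to 3.47 under the alternatives. Among partner and target genes, the 3 that were at least 5-fold higher became 0 with probes of a gene averaged and 4 with a floor of 10 or no floor. With 1 cell left out they were 2 to 4. The 5 that were lower became 3 with a floor of 200 and 7 with a floor of 10 or no floor, and 4 to 7 with 1 cell left out. With no floor, *Tcf4* moved to 7.50, *Gata3* to -6.86 and *Tle3* to -7.97, and the other 246 of 249 single gene values moved by less than the SD between cells. The median difference of the factors ranged from 0.18 to 0.97 under the alternatives, with -0.12 when KO cell 3 was left out and 1.07 when WT cell 2 was. A filter for probes well above background on at least 4 arrays left out *Lmo2*, *Gata3* and *Tcf4*. The cause of these shifts was not tested. With 4 cells of unnamed embryos in each genotype, signal over background and the number of cells limit every value. No paired analysis was possible, because the embryo of each cell was not named and the numbers 1 to 4 name the cells only.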

Other observations

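The nearest genes on the array on either side of each factor were read in the same cells, a choice by position made after the values of the factors were known. Beside *Lyl1*, *Trmt1* differed by -1.55 and *Nfix* by 0.88, the latter well above background in 1 cell. Beside *Tal1*, *Stil* differed by -1.85 and *Pdzk1ip1* was detected in no cell. Beside *Gata2*, *Rpn1* differed by -0.29, and beside *Lmo2*, *Caprin1* differed by -0.08. *Evi5*, next to *Gfi1*, differed by 2.96 and was well above background in 1 WT and 2 KO cells. None of these neighbours had genotypes that did not overlap.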
